A study of Mus musculus with 6 samples.

Results

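Interferon-stimulated genes and the genes of interferon signalling were followed in the cerebellum of mice lacking Gb5, a G protein beta subunit encoded by Gnb5. The members were a list of 38 gene symbols, each read through array probes annotated to that gene alone, and 36 of the 38 had such a probe among the 18193 genes that did. Of these 36, 32 had a mean signal above 4.70 on the log2 scale, the 30th percentile over all probes, and were tested, with 14067 genes in all. Irf7, Zbp1, Oas3 and Mx2 lay below that level. Isg15 and Ifi44 had no single-gene probe and were not tested, though a probe that Isg15 shares with another gene is described below. RNA came from brain tissue, named as cerebellum in the series title, of 3 wild-type mice (arrays 1 to 3) and 3 Gb5-deficient mice (arrays 4 to 6), called knockout below. The labels describe littermates matched for age and sex and a pathogen-free facility, and give neither the age, the strain nor how the Gb5 allele was made. Each mouse gave 1 single-colour Affymetrix array, and values are log2 signals, so a difference of 1 is a doubling of signal.

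Type I interferons are secreted when cells detect foreign or misplaced nucleic acid. They bind the receptor pair Ifnar1 and Ifnar2, whose kinases Tyk2 and Jak1 activate Stat proteins; Stat2 then joins Irf9 in a complex that binds interferon-stimulated response elements in promoters and switches on antiviral genes. In healthy brain a low tonic signal keeps some of these genes on, and microglia, endothelial cells, astrocytes and neurons can all respond to interferon.

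Marker genes were read first: 12 of 12 listed cerebellar neuron genes were tested, with array means from 11.97 to 12.32, while the 3 tested forebrain genes averaged from 6.83 to 7.004. Gnb5 read 8.50 to 8.80 on wild-type arrays and 2.96 to 3.65 on knockout arrays. Knockout array 6 went against the sex matching in the labels, with the Y-linked gene Eif2s3y at 11.80 against 3.19 to 3.43 on the others. The sex-linked gene Xist read 8.22 on array 6, above the filter level, against 11.17 to 11.64 on the others. Values without array 6 are therefore given below.

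The response element that Irf9 and Stat2 bind has the core GAAA, any 2 bases, GAAA, and it was searched for on both strands in RefSeq promoters (GRCm38.p6) of 300 bases, from 250 before to 50 after a gene's start. Promoters were given for 28 of the 38 members, and 13 of these 28 genes (46.4%) held the core, against 3.99% of 27025 genes in the promoter table; neighbouring matches may overlap each other. The core TTCNNNGAA, a Stat site that is its own reverse complement, was held by 8 of 28 members (28.6%) and by 9.55% of all genes. A match describes the letters in this window and does not show that a factor binds there. The 250 bases before the start are printed for some of the genes that the results below turn on, with the response element core in capitals. No promoter was given for Usp18.
Ifit1: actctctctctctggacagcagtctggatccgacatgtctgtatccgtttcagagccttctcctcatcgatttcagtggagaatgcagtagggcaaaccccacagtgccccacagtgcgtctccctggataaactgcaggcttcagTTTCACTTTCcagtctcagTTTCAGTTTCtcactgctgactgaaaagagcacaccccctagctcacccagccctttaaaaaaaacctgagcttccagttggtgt
Ifit3: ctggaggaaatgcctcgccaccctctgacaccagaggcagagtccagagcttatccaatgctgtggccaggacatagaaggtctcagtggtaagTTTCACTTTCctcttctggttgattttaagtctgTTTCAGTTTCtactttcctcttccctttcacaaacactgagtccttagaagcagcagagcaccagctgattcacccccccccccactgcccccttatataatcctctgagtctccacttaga
Oasl2: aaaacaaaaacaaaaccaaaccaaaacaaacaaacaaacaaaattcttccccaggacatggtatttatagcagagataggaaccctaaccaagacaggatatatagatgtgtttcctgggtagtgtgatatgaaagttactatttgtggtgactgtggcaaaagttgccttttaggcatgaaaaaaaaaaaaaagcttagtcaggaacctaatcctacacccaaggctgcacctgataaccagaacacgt
Irf9: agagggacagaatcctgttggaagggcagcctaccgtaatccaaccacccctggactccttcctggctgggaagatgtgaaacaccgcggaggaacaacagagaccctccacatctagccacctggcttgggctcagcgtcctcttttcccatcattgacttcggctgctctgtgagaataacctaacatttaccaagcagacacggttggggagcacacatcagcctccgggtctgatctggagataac
Rsad2: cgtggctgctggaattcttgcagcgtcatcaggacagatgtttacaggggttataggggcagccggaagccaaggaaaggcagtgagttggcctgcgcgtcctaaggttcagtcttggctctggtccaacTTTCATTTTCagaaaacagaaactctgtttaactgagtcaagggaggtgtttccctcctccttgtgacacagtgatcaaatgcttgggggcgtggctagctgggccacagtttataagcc
Cmpk2: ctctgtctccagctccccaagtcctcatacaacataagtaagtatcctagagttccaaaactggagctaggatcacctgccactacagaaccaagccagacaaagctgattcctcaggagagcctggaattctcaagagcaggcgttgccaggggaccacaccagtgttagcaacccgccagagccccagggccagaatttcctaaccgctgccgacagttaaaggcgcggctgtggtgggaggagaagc
Ifit1 (chr19:34640639-34640888, plus strand) held 2 cores, beginning at -104 and -85 from the start, and Ifit3 (chr19:34583279-34583528, plus strand) held 2, at -156 and -122. The Oasl2 window (chr5:114896684-114896933, plus strand) held none, and neither did that of Irf9 (chr14:55603735-55603984, plus strand, the more upstream of 2 listed starts). Rsad2, an interferon-inducible gene outside the list, held 1 core at -120 (chr12:26456453-26456702, minus strand), and its neighbour Cmpk2, with no other protein-coding gene between them in the RefSeq gene order, held none (chr12:26468965-26469214, plus strand).

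Interferon genes stood out on 1 wild-type array rather than between genotypes. Of the 32 tested members, 19 had their highest signal of all 6 arrays on wild-type array 1, where 15.7% of all genes did. The other arrays were highest for 2 (array 2; 13.0% of all genes), 1 (array 3; 8.54%), 0 (array 4; 11.6%), 6 (array 5; 27.6%) and 4 members (array 6; 23.3%). Ifit1, Usp18, Oasl2 and Ifit3, 4 members, exceeded all 5 other arrays by more than 0.5 on array 1, where 0.256% of all genes did. Xaf1 did so on knockout array 5 (0.611% of all genes), and no member did on array 2 (0.0427%), 3 (0.0213%), 4 (0.064%) or 6 (0.27%). Array 1 was chosen for description because of these values, so they are given with no test. Ifit1 passed the signal filter only through its value on array 1.

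**Figure D1:**
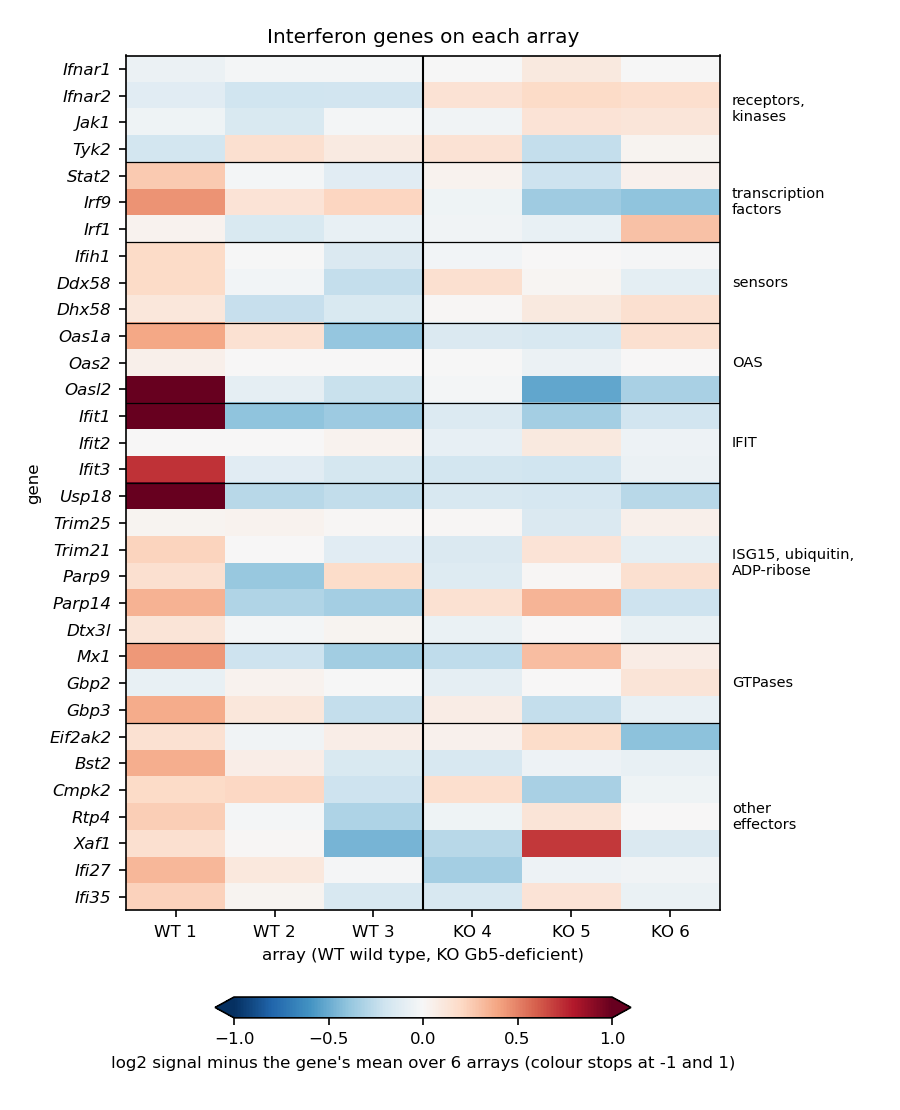
Log2 signal of the 32 tested interferon genes (rows, by role) on the 6 arrays (columns), as the difference from each gene's mean over the arrays; the colour scale stops at -1 and 1. Wild-type array 1 is the highest of the 6 in 19 rows, and Ifit1, Usp18 and Oasl2 reach the end of the scale there.

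Ifit1 encodes a protein that binds viral RNA lacking the host's cap methylation. Its signal was 6.27 on wild-type array 1, 4.44 and 4.47 on wild-type arrays 2 and 3, and 4.70, 4.50 and 4.64 on the knockout arrays. Array 1 thus lay 1.57 above the highest of the others, the gap ranked 2 of 14067 genes on that array. All other arrays lay below the filter level of 4.7045 (highest 4.7029). Ifit1 was therefore tested only through array 1, and its rank and its place among the 4 raised genes rest on that. Without array 1 the wild-type values lay below all 3 knockout values, but at signals under the filter level.

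Usp18 encodes the protease that removes Isg15 from proteins and also damps signalling at Ifnar2. It read 6.88 on array 1, 5.46 and 5.49 on the other wild-type arrays, and 5.58, 5.57 and 5.46 on the knockout arrays. The gap of 1.30 ranked 3, and the other 5 arrays lay within a narrow band.

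Oasl2 encodes an oligoadenylate synthetase-like antiviral protein. Signals were 6.12, 4.85 and 4.73 on the wild-type arrays and 4.93, 4.43 and 4.62 on the knockout arrays, with a gap of 1.20 that ranked 5. Knockout arrays 5 and 6 lay below the filter level of 4.7045, and wild-type array 3 lay just above it. Ifit3, the partner of Ifit1 in its RNA-binding complex, read 7.39, 6.55 and 6.49 in wild type against 6.48, 6.46 and 6.60 in knockout, with a gap of 0.79 that ranked 14. In all 4 genes the knockout arrays overlapped with wild-type arrays 2 and 3 or lay close beside them.

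Members of a family did not stand alike on array 1. Ifit2, from the same gene cluster as Ifit1 and Ifit3, read 7.05, 7.05 and 7.08 in wild type against 6.96, 7.14 and 6.995 in knockout, so array 1 was not raised. Oas2 read 5.15, 5.09 and 5.09 against 5.09, 5.03 and 5.09, a gap of only 0.05 on array 1. Oas1a, a synthetase of the same family, read 5.36, 5.13 and 4.59 against 4.83, 4.81 and 5.13. Smaller gaps on array 1 were seen for the membrane tether Bst2 (0.30), the GTPase Gbp3 (0.26), Irf9 (0.24), Ifi27 (0.23), Oas1a (0.23), Stat2 (0.22) and the RNA sensor Ifih1 (0.19). The receptor genes did not share the pattern: Ifnar1, Ifnar2, Jak1 and Tyk2 were below at least 1 other array on array 1.

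**Figure D2:**
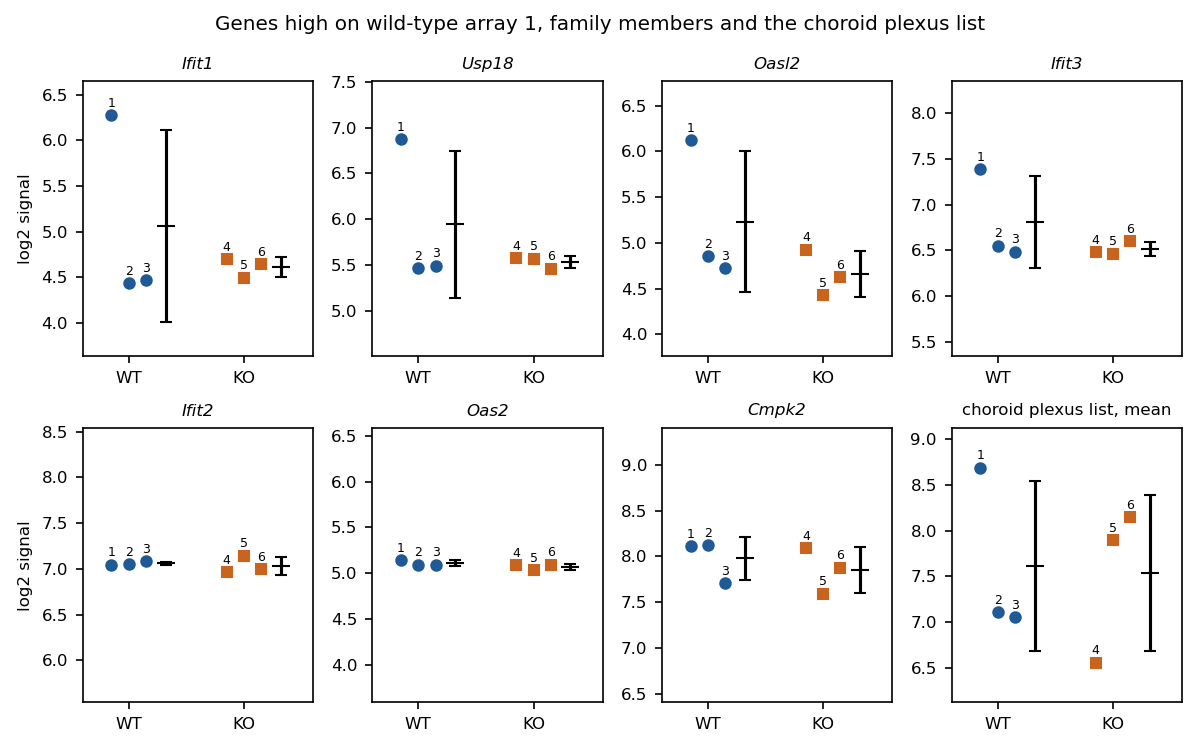
Log2 signal by genotype for 7 interferon genes and the mean of 9 choroid plexus genes, each panel spanning 3 log2 units; circles are wild-type and squares knockout arrays, numbered, and bars are mean ± SD (n = 3). Ifit1, Usp18, Oasl2 and Ifit3 were chosen for being high on array 1 alone. The choroid plexus mean is high on arrays 1, 5 and 6.

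Other transcripts were also high on array 1. The choroid plexus list (9 of 10 genes tested) averaged 8.69 on array 1, 7.05 to 7.11 on the other wild-type arrays, and 6.56, 7.90 and 8.15 on the knockout arrays. The mean of Ifit1, Usp18, Oasl2 and Ifit3 was 6.66 on array 1 and 5.29 to 5.42 on arrays 2, 3 and 4. On knockout arrays 5 and 6 it was 5.24 and 5.33. These genes were chosen for exceeding all other arrays on array 1, so their lower means elsewhere follow from that choice. Gh, the pituitary growth hormone gene, read 10.55 on array 1 and 4.88 to 5.86 on the others, and the part of Gh and of the choroid plexus genes in the result was not tested. Microglial genes (13 of 15 tested) averaged 8.35 on array 1, inside the 8.23 to 8.51 of the other arrays, and endothelial genes (10 of 12) averaged 8.50, inside 8.49 to 8.64. The neutrophil gene S100a8 read 7.37 on array 1, 6.48 and 6.75 on the other wild-type arrays and 6.90 to 7.55 in knockout. In whole tissue, more cells of a type and more RNA per cell cannot be told apart.

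Between genotypes, none of the 32 members passed an adjusted p of 0.05 (limma, moderated linear model, Benjamini-Hochberg adjustment over 14067 genes; 0.0355% of all genes passed, 0.0284% with lower values in knockout). Irf9 and Ifnar2 had an unadjusted limma p under 0.05, 2 of 32 members against 8.57% of all genes. Wild-type and knockout arrays did not overlap in 4 of 32 members, Irf9, Ifi27, Ifnar1 and Ifnar2, against 14.9% of all genes (4.82% lower and 10.1% higher in knockout). Both shares of members lie below those of all genes. Values were lower in knockout for 20 of 32 members, with a median log2 fold change of -0.05, against 43.3% of all genes and a median of 0.03. Without wild-type array 1, 14 of 32 were lower and the median was 0.03, with 45.8% of all genes lower. The absolute log2 fold change was under 0.2 in 25 members, and in 18 the 95% interval lay between -0.5 and 0.5.

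**Figure D3:**
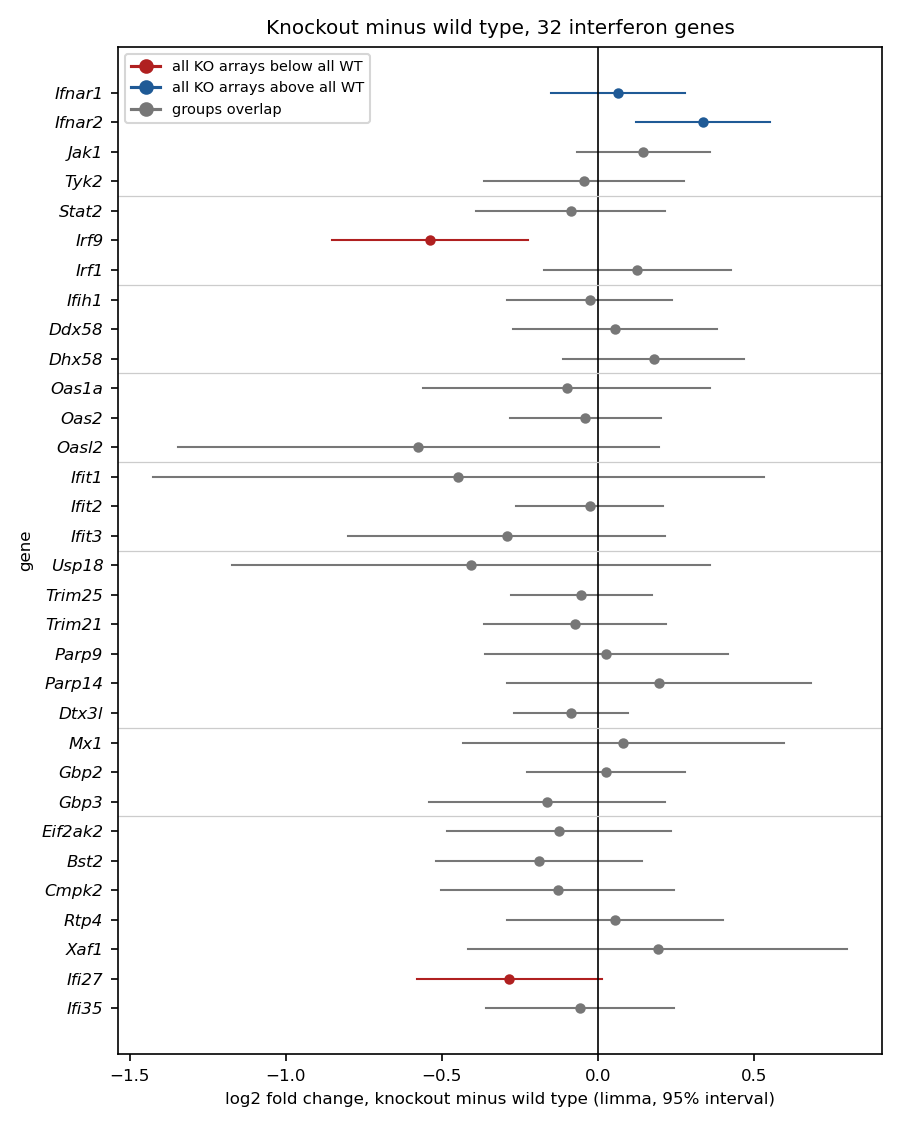
Log2 fold change of knockout minus wild type for the 32 tested interferon genes, in the order of their roles, as limma estimates (points) with 95% intervals (lines). Only the intervals of Irf9 and Ifnar2 leave out 0, and those of Ifit1, Oasl2 and Usp18 are the widest.

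Receptor genes came first in the pathway. Ifnar2, the subunit that binds interferon most tightly and is also made as a soluble form, was read by 3 probes that went in different directions. The brightest probe read 8.09, 8.01 and 8.01 in wild type against 8.35, 8.40 and 8.38 in knockout, so that every knockout array lay above every wild-type array. Its log2 fold change was 0.34 (SE 0.09, 95% interval 0.12 to 0.55; limma adjusted p = 0.479, unadjusted 0.00634). The second probe read 7.90, 7.89 and 7.98 in wild type against 7.66, 7.33 and 7.74 in knockout, so that every knockout array lay below every wild-type array. Its log2 fold change was -0.34 (SE 0.13; adjusted p = 0.554 with limma on each probe, unadjusted 0.0313). For the dimmest probe the difference was -0.04, and for the mean of the 3 probes it was -0.015. The probes' places in the transcripts were not used here, and the gene's direction therefore depends on the probe. Without knockout array 6 the brightest probe gave 0.34, and it gave from 0.32 to 0.36 without each of the 6 arrays in turn.

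Ifnar1, the other receptor subunit, had signals of 8.32, 8.35 and 8.36 in wild type against 8.37, 8.47 and 8.37 in knockout. The groups did not overlap, yet the difference was 0.06 (SE 0.09; limma adjusted p = 0.818), and its second probe had a value of -0.03. Jak1, the kinase bound to Ifnar2, read 9.90, 9.79 and 9.92 in wild type against 9.91, 10.08 and 10.07 in knockout, with overlapping groups. Its 3 probes had log2 fold changes of 0.15, 0.30 and 0.30, none passing. Tyk2, the kinase bound to Ifnar1, had a value of -0.05.

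Among transcription factors, Irf9 had the lowest p of all members. Irf9 is the DNA-binding subunit that brings activated Stat proteins to response elements. It read 8.04, 7.73 and 7.81 in wild type against 7.55, 7.24 and 7.19 in knockout, every knockout array below every wild-type array. The mean fell short of a call: the log2 fold change was -0.54 (SE 0.14, 95% interval -0.85 to -0.22; limma adjusted p = 0.439, unadjusted 0.00398, which ranked 126 of 14067 genes). It was -0.47 without knockout array 6, -0.45 without wild-type array 1, and between -0.65 and -0.45 without any 1 of the 6 arrays. Only 1 probe reads Irf9, so no second probe could be set beside it.

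Stat2, the partner of Irf9, had overlapping groups on both of its probes. The brighter probe read 8.27, 7.99 and 7.90 in wild type against 8.05, 7.80 and 8.05 in knockout, a log2 fold change of -0.09, and 0.02 without array 1. The dimmer probe gave -0.25 and the mean of both -0.17 (limma adjusted p = 0.582), and the difference between Stat2 and Irf9 was not tested. Irf1, a factor induced mainly by interferon gamma, read 6.72, 6.54 and 6.62 against 6.66, 6.62 and 6.99, highest on knockout array 6 (log2 fold change 0.13, and 0.01 without that array). Irf7, the amplifier of interferon production, was dim in both genotypes, at 4.26 to 4.42 in wild type and 4.23 to 4.54 in knockout.

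Sensors of nucleic acid gave small values in both directions. Ddx58, which encodes the RNA helicase RIG-I, read 5.53, 5.31 and 5.09 in wild type against 5.50, 5.35 and 5.24 in knockout. Dhx58, a related helicase that tunes the other sensors, read 5.87, 5.53 and 5.60 against 5.77, 5.85 and 5.92. Ifih1, the sensor of long double-stranded RNA, read 7.42, 7.22 and 7.08 against 7.19, 7.23 and 7.21. Their log2 fold changes were 0.05, 0.18 and -0.03, and groups overlapped in all 3. Zbp1, a sensor of left-handed nucleic acid, stayed between 4.15 and 4.44 on every array.

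In the OAS and IFIT families the values of Oasl2, Ifit1 and Ifit3 moved most when array 1 was left out. All 6 tested genes of these families had lower values in knockout. For Oasl2 the log2 fold change was -0.58 (SE 0.34, 95% interval -1.35 to 0.20; limma adjusted p = 0.617), which was -0.13 without wild-type array 1. For Ifit1 the value was -0.45 with all arrays (SE 0.43, limma adjusted p = 0.726). Without array 1 it was 0.16, from arrays that all lay below the filter level. For Ifit3 the values with and without array 1 were -0.29 and 0.00. Oas1a had -0.10 with all arrays, 0.07 without array 1 and -0.32 without wild-type array 3. Ifit2 (-0.03) and Oas2 (-0.04) were near 0, and Ifit2 was -0.03 without array 1 too. The SDs of the first 3 genes were larger in wild type: the wild-type SD of Ifit1 was 1.05 and its knockout SD 0.11 (n = 3 each), with 0.77 and 0.25 for Oasl2 and 0.50 and 0.07 for Ifit3. Over the 32 members the median wild-type SD was 0.19 and the median knockout SD 0.14, against 0.11 and 0.14 over all genes tested.

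Genes that attach or remove Isg15, ubiquitin or ADP-ribose were also mostly flat. For Usp18 the log2 fold change was -0.41 (SE 0.34; limma adjusted p = 0.689) and 0.06 without array 1, with a wild-type SD of 0.81 and a knockout SD of 0.07. Parp14, an ADP-ribosyltransferase, read 5.98, 5.33 and 5.29 against 5.79, 5.97 and 5.43, high on 1 wild-type and 2 knockout arrays. Dtx3l, the ubiquitin ligase that pairs with Parp9, was bright and steady at 10.74, 10.60 and 10.64 against 10.55, 10.63 and 10.55. The ubiquitin ligase Trim25, which activates RIG-I, had a value of -0.05, the antibody receptor Trim21 one of -0.07 and Parp9 one of 0.03. A probe shared by Isg15 and Gm9706, outside the single-gene rule, read 6.28, 6.02 and 6.11 in wild type against 5.96, 5.95 and 5.80 in knockout. On it every knockout array lay below every wild-type array.

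Interferon-inducible GTPases did not separate the genotypes. Mx1, which blocks influenza-like viruses, read 5.48, 4.84 and 4.70 in wild type against 4.79, 5.35 and 5.12 in knockout, high on array 1 and on knockout array 5. Gbp3, a guanylate-binding protein, read 7.31, 7.05 and 6.70 against 7.01, 6.70 and 6.86. Gbp2 stayed between 5.73 and 5.94. Their log2 fold changes were 0.08, -0.16 and 0.03, and Mx2 was dim at 4.11 to 4.50.

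Of the other effectors, Ifi27 alone had groups that did not overlap. Ifi27, a small inducible membrane protein, read 9.59, 9.36 and 9.24 in wild type against 8.92, 9.20 and 9.22 in knockout. The lowest wild-type array and the highest knockout array were nearly level, and the log2 fold change was -0.28 (SE 0.13; limma adjusted p = 0.595). It was -0.19 without wild-type array 1 and -0.34 without knockout array 6, and a second probe gave -0.23 with overlapping groups. Bst2, which tethers budding virus, read 6.34, 6.04 and 5.82 against 5.81, 5.92 and 5.90. Xaf1, a pro-apoptotic gene, read 6.68, 6.53 and 6.06 against 6.24, 7.23 and 6.37, high on knockout array 5 alone; its second probe read 5.75 on that array and 6.19 on wild-type array 1. The RNA-activated kinase gene Eif2ak2 (-0.12), the nucleotide kinase gene Cmpk2 (-0.13), Rtp4 (0.05) and Ifi35 (-0.06) overlapped between genotypes.

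**Figure D4:**
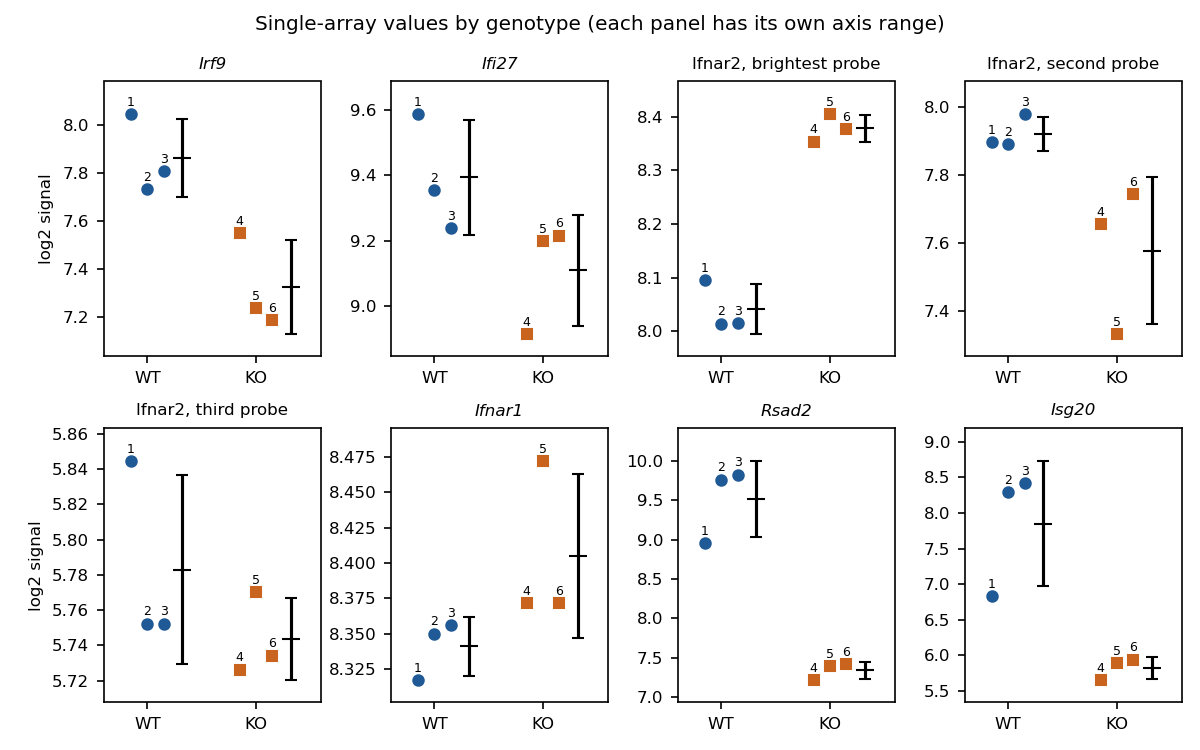
Log2 signal by genotype for Irf9, Ifi27, the 3 Ifnar2 probes, Ifnar1, Rsad2 and Isg20, each panel on its own axis range; circles are wild-type and squares knockout arrays, numbered, and bars are mean ± SD (n = 3). The 2 brighter Ifnar2 probes separate the genotypes in opposite directions, and Rsad2 and Isg20 are lowest in wild type on array 1.

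A wider list of interferon pathway genes was set beside the members. Of 68 listed, 47 were tested and 1 passed, Rsad2, where 0.0355% of all genes did. An unadjusted limma p under 0.05 was found for 6 of 47, against 8.57% of all genes. Groups did not overlap in 8 of 47, a share near the 14.9% of all genes, with 4 lower and 4 higher in knockout. Rsad2, the antiviral radical enzyme viperin, read 8.95, 9.76 and 9.82 in wild type against 7.21, 7.39 and 7.42 in knockout (log2 fold change -2.17, SE 0.22; limma adjusted p = 0.0143). Rsad2 did not pass without wild-type array 2 (limma adjusted p = 0.136) or 3 (0.0617) or without knockout array 5 (0.0702) or 6 (0.146), with log2 fold changes from -2.21 to -2.02. It passed without wild-type array 1 (limma adjusted p = 0.000297) or knockout array 4 (0.0362). A dimmer Rsad2 probe read 6.44, 7.30 and 7.24 in wild type against 4.52, 4.75 and 5.12 in knockout. Its log2 fold change was -2.20 (adjusted p = 0.0492 with limma on each probe), and the mean of the gene's probes gave -1.47. Cmpk2, the genomic neighbour of Rsad2 and usually induced with it, read 8.11, 8.12 and 7.71 in wild type against 8.09, 7.59 and 7.88 in knockout on its brighter probe, a log2 fold change of -0.13. A dimmer Cmpk2 probe read 5.16, 4.78 and 5.08 in wild type against 4.86, 4.51 and 4.62 in knockout, a log2 fold change of -0.34 (SE 0.15; adjusted p = 0.573 with limma on each probe, unadjusted 0.0479) with overlapping groups. On the brighter probes, array by array, Rsad2 lay 0.84, 1.64 and 2.11 above Cmpk2 in wild type against -0.88, -0.20 and -0.46 relative to it in knockout; probes differ in brightness, so only the shift between arrays can be read.

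Isg20, an interferon-inducible exonuclease, was shaped like Rsad2. It read 6.84, 8.30 and 8.42 in wild type against 5.65, 5.89 and 5.94 in knockout (log2 fold change -2.03, SE 0.37; limma adjusted p = 0.226), and passed without array 1 (-2.53; adjusted p = 0.000492). With any other single array left out, Isg20 did not pass (limma adjusted p from 0.175 to 0.745, log2 fold changes from -2.08 to -1.74). Isg20 and Rsad2 were lowest among wild-type arrays on array 1, where Ifit1, Usp18, Oasl2 and Ifit3 were highest. The red cell gene Alas2 read 7.98, 9.68 and 9.43 in wild type against 6.73, 6.88 and 7.24 in knockout. Slc4a1, another, read 7.15, 8.66 and 8.64 against 6.11, 6.17 and 6.47. Both were likewise lowest among wild-type arrays on array 1 and lower on all knockout arrays. The blood cell list they come from also holds genes of other blood cells, such as the neutrophil gene S100a8, and did not move as 1. Of 10 tested genes, 5 were lower and 5 higher in knockout (median log2 fold change 0.03). Groups did not overlap in 3 of the 10, all lower in knockout, against 4.82% of all genes. The list means were 7.71, 7.75 and 7.70 in wild type, so array 1 was not lowest, against 7.36, 7.24 and 7.52 in knockout. These means mix cell types and do not describe red cells alone. The part of the red cell genes in the values of Rsad2 and Isg20 was not tested.

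Class I antigen presentation genes, many of them also interferon-inducible, were mostly higher in knockout by value. Of 6 tested, none passed and 3 had knockout arrays all above the wild-type arrays, as 10.1% of all genes did. H2-D1, a classical class I heavy chain, read 9.45, 9.32 and 9.20 in wild type against 9.64, 9.69 and 9.63 in knockout (log2 fold change 0.33; limma adjusted p = 0.518). Its second probe gave 0.41 and the mean of its probes 0.18. Tap1, the peptide transporter subunit, had a value of 0.34 (limma adjusted p = 0.574), with 0.21 without knockout array 6 and 0.07 with its second probe. H2-K1, another heavy chain, had a value of 0.33, while B2m, the shared light chain, had -0.12. Among these named genes B2m alone was highest of the 6 on array 1.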

How the data were processed

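Groups came from the genotype in the labels, and columns were matched to samples by name. The authors' deposited table holds log2 signals, made with RMA and Partek per the submitters' processing notes (versions not given in the sources used here); RMA quantile-normalizes arrays, so a global change would not be seen. Scanner files and scan dates were not used here, which leaves scan batches unexamined.

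Of 45037 probes besides controls, 34945 had 1 gene in the platform annotation, 932 several and 9160 none; symbols were updated through Entrez identifiers (RefSeq, GRCm38.p6) for 34741. The probe of highest mean signal stood for each gene. limma 3.58.1 (R 4.3.3, empirical Bayes with an intensity trend, two-sided, Benjamini-Hochberg) was fitted over 14067 genes. On simulated data with 14067 genes and 10 runs it recovered 31.2% of genes changed by 0.5 and 83.8% of those changed by 1 (log2). False calls made up 4.28% of all calls. These runs also held genes changed by 2 and by 4, so the shares belong to that mix. Recovery where as few as 5 genes pass, as in the fit here, was not tested. An exact permutation test of 3 against 3 arrays cannot go below p = 0.1. The number of arrays limits precision, and the median SE was 0.139 for members and 0.118 for all genes.

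Members and lists were chosen with earlier results of these data known. Named are members whose groups did not overlap, up to 3 per role with the largest change, and 4 genes of the wider list; other names were chosen after their values were seen. Alternatives were other filters, scalings, probe rules, variance models, array weights, thresholds and each array left out.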

Additional observations from a re-analysis of the deposited data

How the results depend on the processing

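No paired analysis was possible because the labels number the mice 1 to 6 and the genotypes share no number. The count of all genes passing was 5, and 3 with the filter at the 50th percentile, 8 with no filter, 1205 at an unadjusted p of 0.05 and from 2 to 10 with 1 array left out. No member passed in any alternative on adjusted p, and 2 had an unadjusted p under 0.05. Members without overlap numbered 4, but 1 (Irf9) with the mean of a gene's probes and 6 to 8 with 1 array left out, where fewer arrays overlap less by construction. The wider list had 1 passing gene, 6 at an unadjusted p of 0.05 and from 0 to 2 with 1 array left out. The median over members ran from -0.09 to 0.03 with 1 array left out, the highest without wild-type array 1.

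Of 24 named members, 11 kept their sign in every alternative, Irf9, Ifi27, Oasl2 and Ifit3 among them; 13 did not. Of these, Ifnar2 read -0.015 with the mean of its probes and -0.343 with its second probe, Ifnar1 -0.032 with its second probe, Xaf1 -0.072, and Gbp2 -0.044 with the second and -0.009 with the mean. Array weights gave 0.143 for Oas1a, 0.047 for Ifih1, 0.019 for Stat2 and 0.004 for Gbp3. With 1 array left out, ranges were -0.758 to 0.159 for Ifit1, -0.648 to 0.059 for Usp18, -0.318 to 0.067 for Oas1a, -0.165 to 0.020 for Stat2, -0.106 to 0.063 for Ifih1, -0.052 to 0.163 for Ddx58, -0.031 to 0.077 for Gbp2, -0.081 to 0.010 for Ifit2, -0.073 to 0.321 for Mx1 and -0.116 to 0.377 for Xaf1. The cause of the other sign changes was not tested. Dim probes such as those of Oas3, Mx2, Irf7 and Zbp1 limit what could be seen for these genes.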

Other observations

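Genes beside the type I pathway gave values in both directions, with no call. Ifngr2, a subunit of the interferon gamma receptor, read 8.45, 8.12 and 8.40 in wild type against 8.49, 8.68 and 8.67 in knockout, all knockout arrays above all wild-type arrays (log2 fold change 0.29; limma adjusted p = 0.574). Irf3, the factor that starts interferon production, read 9.20, 9.39 and 9.29 against 9.17, 9.11 and 9.10, all knockout arrays below (-0.17; limma adjusted p = 0.614). Tlr7, a sensor of single-stranded RNA, read 5.53, 5.89 and 5.52 against 5.44, 5.37 and 5.46, again all below (-0.22; limma adjusted p = 0.617). Irf2, a factor that opposes Irf1, read 10.12, 9.60 and 9.94 against 9.70, 9.63 and 9.52, with overlapping groups. Of the 47 tested genes of the wider list, 14 were highest of the 6 on array 1 and 13 on array 6, against 15.7% and 23.3% of all genes.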
